A study of Mus musculus with 27 samples.

Results

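The interleukin-6 (IL-6) family was followed through 10 genes, chosen by gene symbol with earlier results of these data known. They were the ligand genes Il6, Lif, Osm and Clcf1, the receptor genes Il6ra, Il6st, Lifr and Osmr, and the downstream genes Stat3 and Socs3. Each symbol named 1 entry in both deposited tables, which held 55852 entries for injured muscle and 55677 entries for control and WT D1 muscle. The series holds RNA-seq libraries of male mouse muscle, injured with cardiotoxin (CTX), a snake venom toxin that destroys fibres, after which the muscle regenerates. Injured muscle of WT mice and of mice titled Gsdme KO gave 24 libraries, 3 for each genotype on each of D1, D4, D7 and D14, and WT control muscle without a KO counterpart gave 3 more. All injured groups received CTX, all mice were C57BL/6J or a global KO that the study describes, and Gsdme encodes gasdermin E, a pore-forming protein. The genotype field of the KO libraries reads knockdown, so KO below stands for libraries with that title. The study names gastrocnemius and contralateral uninjured muscle, whereas the deposited design text also names thigh muscle and an unloaded control.

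IL-6 family cytokines signal through gp130, the shared receptor chain encoded by Il6st. Each ligand first binds its own receptor chain or pairs gp130 with the LIF or oncostatin M receptor, after which JAK kinases phosphorylate STAT3, which enters the nucleus. STAT3 induces Socs3, whose protein binds gp130 and JAK kinases and dampens the same signal. In injured muscle, IL-6 and LIF are known as factors made by immune cells and fibres that act on satellite cells, and oncostatin M as a macrophage and neutrophil product.

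Promoter windows are shown for Socs3, the member whose window held a STAT motif, and Il6, the member whose window held an NF-kB motif. The 250 bases before the RefSeq start (GRCm38.p6, the same assembly as mm10) were searched on both strands for the STAT motif TTCNNNGAA, the NF-kB motif (GGGA, any base, TTTCC) and the AP-1 motif TGANTCA. RefSeq windows matched 8 of the 10 genes, with 9 windows in all, and Osm and Clcf1 had no window. Capitals mark the matches, and each sequence runs 5′ to 3′ on the strand of the gene. The Socs3 window (chr11:117969367-117969616, minus strand) held TTCTTAGAA from 154 bases before the start. GENCODE M21 places the start of Socs3 at 117970047, so this whole window lies inside the gene in that annotation. In the Il6 window (chr5:30012864-30013113, plus strand), GGGATTTTCC began 44 bases and TGAGTCA 249 bases before the start.
Socs3: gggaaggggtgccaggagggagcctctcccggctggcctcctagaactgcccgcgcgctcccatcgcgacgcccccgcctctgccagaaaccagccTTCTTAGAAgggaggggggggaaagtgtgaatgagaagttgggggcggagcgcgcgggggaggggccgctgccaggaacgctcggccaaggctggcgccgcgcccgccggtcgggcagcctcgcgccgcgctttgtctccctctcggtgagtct
Il6: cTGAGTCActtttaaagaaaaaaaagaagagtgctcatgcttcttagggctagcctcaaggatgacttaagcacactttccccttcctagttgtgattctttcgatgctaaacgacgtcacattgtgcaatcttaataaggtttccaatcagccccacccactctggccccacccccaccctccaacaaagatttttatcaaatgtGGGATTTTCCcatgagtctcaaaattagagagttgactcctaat
The STAT motif stood in 7.02% of 32851 windows of all genes, the AP-1 motif in 6.75% and the NF-kB motif in 0.356%. Among the members, Socs3 alone had the STAT motif and Il6 alone the NF-kB motif, and the AP-1 motif was also present in Lif as TGACTCA, 228 bases before its start. These matches describe letters in a window and were not tested for binding.

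Values were TPM, the share of all transcripts corrected for gene length, so the read depth behind them is unknown. Libraries had 11785 to 14704 genes at 1 TPM or more, and between 25.4% and 61.4% of their TPM in the top 50 genes. Mature myofibre markers (10 genes such as Acta1 and Ckm) summed to between 41916 and 204487 TPM in the injured libraries, so the muscle label held in each. Gsdme itself was lower in every KO than in every WT library on D1, D4 and D7. On D1 the WT libraries had 2.76, 4.85 and 3.16 TPM and the KO libraries 1.53, 1.28 and 2.17 TPM. On D14 they overlapped, with 1.46, 2.21 and 2.26 TPM in WT and 1.96, 1.77 and 1.27 TPM in KO. Averaged over days, the Gsdme difference was -0.55 on the log2(TPM + 1) scale (exact permutation p = 8.75e-05), and the limma fit over all genes gave an adjusted p of 0.0664. WT D1 replicate 3, KO D4 replicate 2 and KO D7 replicate 2 stood apart from their groups. Their 10 monocyte and macrophage markers summed to 870, 479 and 491 TPM, against 2432 and 3849 TPM in the other WT D1 libraries, 3799 and 3152 TPM in the other KO D4 libraries and 1295 and 1220 TPM in the other KO D7 libraries. In bulk muscle, fewer cells of a type and less RNA per cell cannot be told apart. Both tables include the WT D1 libraries, and the study describes a sequencing batch of injured and uninjured muscle at 24 h and another of WT and KO muscle over the time course. Which batch gave the WT D1 values is not stated, so batch cannot be told apart from injury in the control comparison or from genotype on D1. Every other comparison that uses WT D1 has the same limit. These are the WT step from D1 to D4, the genotype difference averaged over days, and the tests of whether it varied between days.

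To describe the family early after injury, WT D1 was compared with WT control muscle in the table that holds both. Among the genes tested, Socs3, Clcf1, Stat3, Il6ra, Osmr and Il6st were higher at D1 and Lifr was lower. The ligand genes Il6, Lif and Osm were too low for the test, which required at least 1 TPM in at least 3 libraries. Osm, which encodes oncostatin M, was nevertheless at 0.08, 0 and 0 TPM in control muscle and at 3.52, 3.47 and 0.79 TPM on D1. The groups did not overlap, and the difference was 1.69 on the log2(TPM + 1) scale (exact two-sided permutation p = 0.1, the smallest that 3 against 3 libraries allow). Il6, the founding cytokine of the family, was at 0.05, 0.28 and 0.08 TPM in control muscle and at 2.31, 2.62 and 0.18 TPM on D1. Replicates 1 and 2 exceeded all controls, whereas replicate 3 lay within the control range (log2 difference 1.09, exact p = 0.2). Lif, which encodes leukemia inhibitory factor, had 0.15, 0.24 and 0.22 TPM in control muscle and 1.03, 0.47 and 0.14 TPM on D1. Its lowest D1 library lay below every control (log2 difference 0.32, exact p = 0.4). Clcf1, which encodes cardiotrophin-like cytokine factor 1, was at 0.49, 0.57 and 0.42 TPM in control muscle and at 4.04, 5.72 and 2.31 TPM on D1. Its log2 difference was 1.69, with SE 0.273 and adjusted p = 0.00245. Clcf1 passed the low-value requirement only through its D1 libraries, and 8.17% of its exon bases are shared with the gene AC109138.7 on the same strand, so that its level is uncertain.

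The receptor genes did not move as a group. Il6ra, which encodes the chain that binds IL-6, was at 1.98, 1.46 and 1.82 TPM in control muscle and at 7.94, 14.0 and 3.27 TPM on D1. All D1 libraries exceeded all controls (log2 difference 1.60, SE 0.412, adjusted p = 0.0112). Osmr, the receptor chain for oncostatin M, had 4.14, 2.71 and 3.38 TPM in control muscle and 11.2, 14.1 and 6.69 TPM on D1 (log2 difference 1.36, SE 0.284, adjusted p = 0.00513). Il6st, the gp130 gene, was already high in control muscle at 49.8, 30.9 and 45.9 TPM and reached 58.7, 68.9 and 65.8 TPM on D1. Its log2 difference of 0.63 (SE 0.206, adjusted p = 0.0284) was close to the median of 0.66 over all 13041 genes tested. With median-of-ratios scaling, which sets that median near 0, the Il6st difference turned to -0.15 (adjusted p = 0.538). Lifr, the LIF receptor chain, went the other way, from 12.8, 8.61 and 10.03 TPM in control muscle to 7.55, 6.32 and 5.77 TPM on D1. Every D1 library was below every control (log2 difference -0.60, SE 0.214, adjusted p = 0.0392), and the call was lost without either of control replicates 1 and 3 or any 1 of the D1 libraries (adjusted p from 0.0538 to 0.175).

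Both downstream genes were higher on D1. Socs3, the feedback inhibitor, was at 1.78, 1.83 and 2.13 TPM in control muscle and at 41.1, 52.3 and 12.6 TPM on D1. This was the largest difference of the members tested, at 3.42 on the log2 scale (SE 0.457, adjusted p = 0.00155). Stat3, the transcription factor itself, had 23.6, 17.2 and 20.9 TPM in control muscle and 76.0, 72.9 and 48.4 TPM on D1 (log2 difference 1.61, SE 0.219, adjusted p = 0.00164). D1 replicate 3 was the lowest D1 library for Osm, Il6, Lif, Clcf1, Il6ra, Osmr, Socs3, Stat3 and Lifr, and it had the lowest macrophage marker sum of the group, 869 TPM in this table, beside control sums of 176 to 225 TPM.

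**Figure D1:**
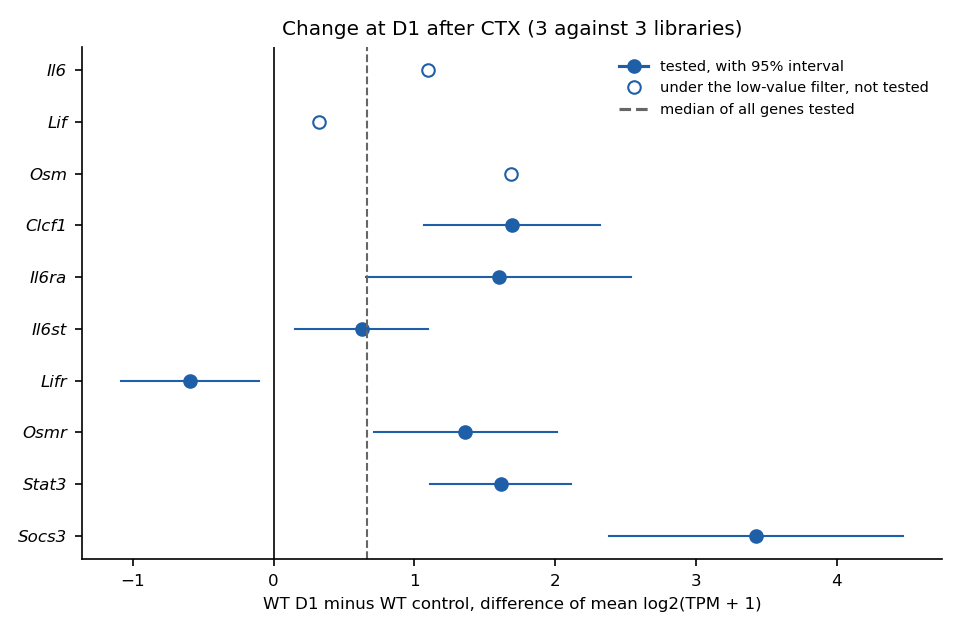
Difference of mean log2(TPM + 1) between WT D1 and WT control for the 10 genes, with 95% intervals for the 7 tested (filled points) and no interval for the 3 under the low-value requirement (open points). Socs3 lies at 3.42, Lifr is the only gene left of 0, at -0.60, and Il6st sits beside the dashed median of all genes at 0.66.

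In all, 7 of 10 members were tested, of which 6 were higher and 1 was lower. Of all genes tested, 55.4% were called higher and 5.64% lower, so that most called genes of this table were higher. Under median-of-ratios scaling the called genes split into 2693 higher and 2816 lower instead of 7229 and 736, with quantile normalization into 2553 and 2673, and without the 50 most abundant genes into 4434 and 1772. Socs3, Stat3 and Osmr kept their direction and call under all 14 alternatives tried, Clcf1 under all 10 that could be run, and Il6ra under 12 of 13. Clcf1 reached 1 TPM in no control library, so that under the low-value requirement its call could only be higher. It could not be run with the filter at 5 TPM or without any 1 of the D1 libraries. Groups did not overlap for 7 of 10 members in the higher direction, against 64.2% of genes tested, and for Lifr in the lower, against 7.03%. Without D1 replicate 2 only 4 members were called, since Clcf1 then no longer met the low-value requirement and Il6st and Lifr had adjusted p of 0.0593 and 0.0582.

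Other genes of the pathway were read from lists. Of 11 other ligands and receptors, 7 were tested, 4 were higher and 1 was lower. Ebi3, a subunit of IL-27, went from a mean of 1.04 TPM to 3.82 TPM (log2 difference 1.10), Il31ra from 243 to 391 TPM (0.72) and Il27ra from 0.423 to 1.22 TPM (0.64). Cntfr, the receptor for ciliary neurotrophic factor, was lower, with 23.6 TPM in control muscle and 8.36 TPM on D1 (-1.29, adjusted p = 0.0102). Of 15 other genes for signalling in the gp130 pathway, 14 were tested, and 9 were higher and 1 lower. They included the sheddase gene Adam10 (1.50), the inhibitor gene Socs1 (1.39) and the kinase gene Tyk2 (1.36). Of 20 known STAT3 target genes, 19 were tested, 18 were higher and none was lower, with a median of 2.43 against 0.66 over all genes. Ccl2, a monocyte chemokine, rose most, from a mean of 1.95 TPM to 395 TPM (6.68), followed by Timp1 (5.28), Lcn2 (5.05) and Saa3 (4.66). Lcn2 also stands among the neutrophil markers. Saa3, Il27ra and Socs1 reached 1 TPM in no control library and met the low-value requirement through the D1 libraries alone, so that a call of these genes could only be higher. The counts stand beside 55.4% of all genes called higher.

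Cell type markers moved in the same comparison, where 55.4% of all genes tested were called higher and 5.64% lower. All 10 monocyte and macrophage markers were higher on D1, of which 2 reached 1 TPM in no control library. Of 10 neutrophil markers 7 were tested and higher, but 4 of these reached 1 TPM in no control library and met the low-value requirement through the D1 libraries alone, so that this count is partly fixed by it. Neutrophil markers summed to between 4.13 and 6.49 TPM in control muscle, with the defining marker Ly6g at 0 in each, and to between 214 and 683 TPM on D1. Macrophage markers summed to between 176 and 225 TPM in control muscle and between 869 and 3850 TPM on D1. Mature myofibre markers had 3 of 10 lower, with sums of 165486 to 183112 TPM in control muscle and 85014 to 172808 TPM on D1. Among the remaining lists, 5 of 6 satellite cell and myoblast markers tested were higher, 3 of 10 fibro-adipogenic progenitor markers were higher, and 5 of 6 adipocyte markers tested were lower. Of 8 endothelial markers 2 were higher and 1 was lower, and of 8 Schwann cell and nerve markers 3 were lower. The shares of progenitor and endothelial markers called higher were below that of all genes. The lymphocyte and acinar pancreas lists had 1 gene tested each, Nkg7 and Cela1, and both met the low-value requirement through the D1 libraries alone, so that their direction was fixed by it. The part of these cell types in the changes of the family was not tested.

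The order of levels differed between control and D1 muscle. In control muscle the means ran from Il6st (42.2 TPM) through Stat3 (20.6), Lifr (10.5), Osmr (3.41), Socs3 (1.91) and Il6ra (1.75) to Clcf1 (0.493), Lif (0.203), Il6 (0.137) and Osm (0.0267). On D1 the same table gave Stat3 (65.8 TPM) and Il6st (64.5), which overlapped, then Socs3 (35.3), Osmr (10.7), Il6ra (8.42), Lifr (6.55), Clcf1 (4.02), Osm (2.59), Il6 (1.70) and Lif (0.547). Lifr thus stood above Osmr, Socs3 and Il6ra in control muscle and below them on D1, though its D1 values overlapped those of Osmr and Il6ra. Levels of Osmr rest on the table used. The same WT D1 libraries gave Osmr values 1.40, 1.33 and 1.32 times higher in the injured table, and Clcf1 values 1.08, 1.31 and 1.00 times. Of all values of at least 1 TPM, 92.3% were within 10% between tables, as were those of the other members.

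**Figure D2:**
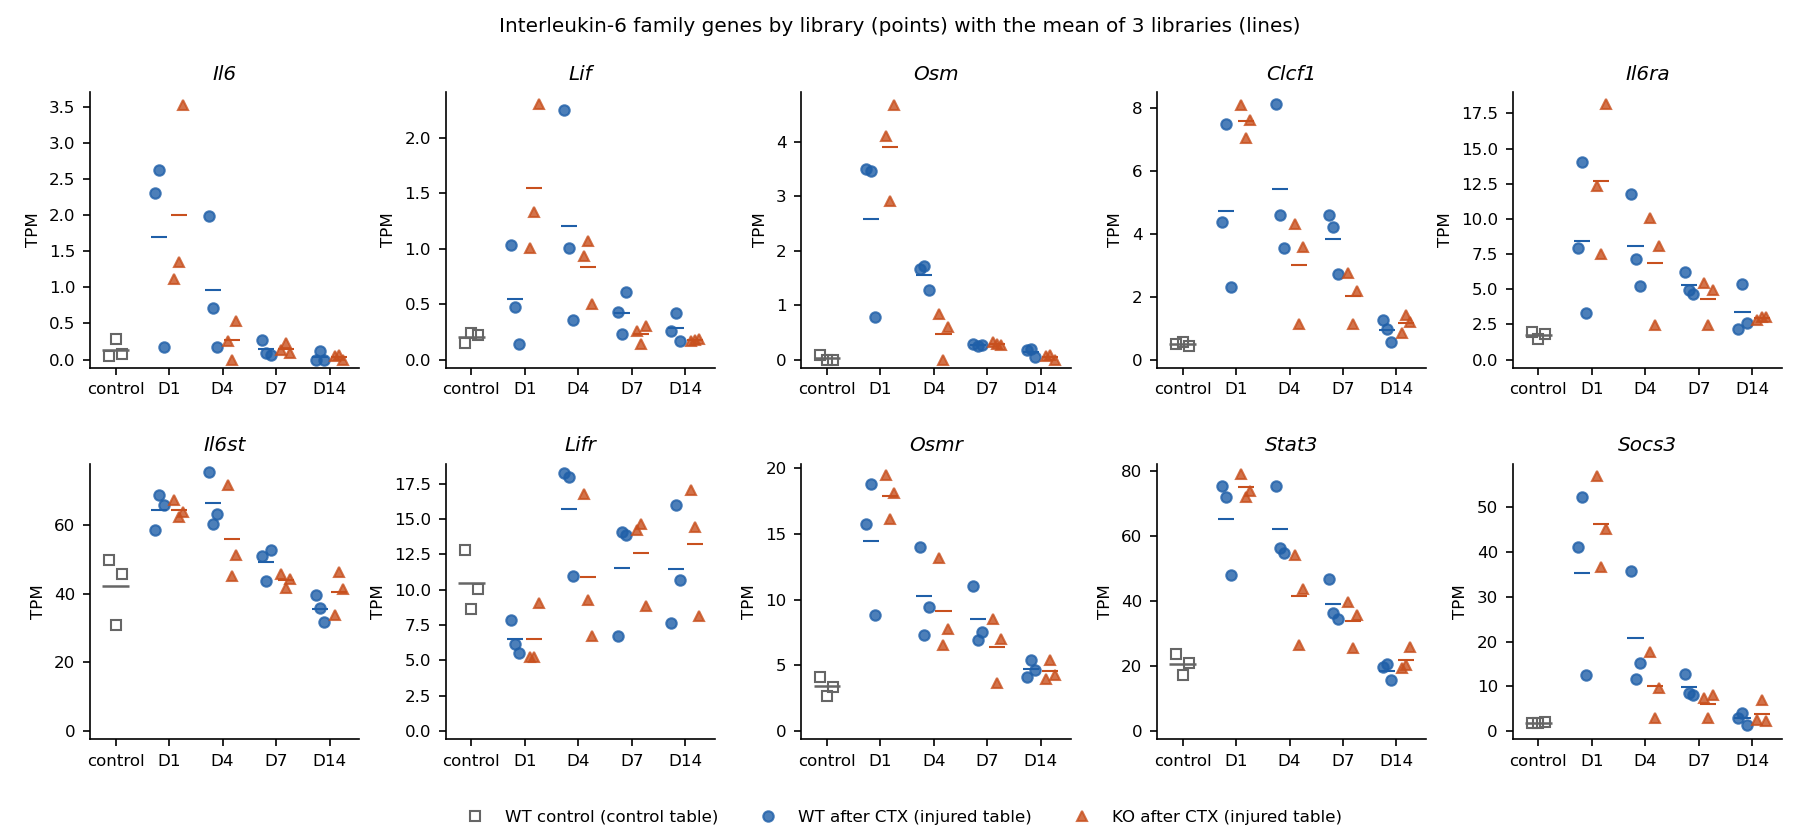
TPM of each gene in every library, with WT control from the control table (squares) and WT (circles) and KO (triangles) after CTX from the injured table, and short lines for means of 3 libraries. The group means of Socs3 are highest on D1, with libraries from 12.54 to 56.86 TPM over both genotypes, while those of Lifr are lowest on D1, with libraries from 5.25 to 9.06 TPM.

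To ask whether the family differed by genotype, KO was compared with WT on each day in the table of injured muscle, where all 10 members passed the low-value requirement, Il6, Lif and Osm through D1 and D4 libraries alone. No member was called on any day at an adjusted p under 0.05. The same test called 0.00636% of 15718 genes on D1 (1 gene) and 0% on D4, D7 and D14, so that the absence of calls was shared by nearly all genes. At an unadjusted p under 0.05, 1 member was higher on D1, 2 were lower on D4 and none passed on D7 or D14, where 3.06% and 2.06% of all genes did. The intervals below show which differences remain possible.

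On D1 the ligand genes had higher group means in KO muscle, with overlapping libraries. Lif was at 1.01, 1.33 and 2.30 TPM in KO and 1.03, 0.47 and 0.14 TPM in WT, where 1 WT library lay within the KO range. Its log2 difference of 0.73 had a 95% interval of 0.17 to 1.28 (unadjusted p = 0.0129, adjusted p = 0.873), and 2.88% of all genes had an unadjusted p under 0.05 in the higher direction. Osm had 4.12, 2.91 and 4.68 TPM in KO and 3.51, 3.47 and 0.78 TPM in WT, with a log2 difference of 0.55 and an interval from -0.02 to 1.13. Il6 was at 1.12, 1.35 and 3.52 TPM in KO and 2.30, 2.62 and 0.18 TPM in WT (log2 difference 0.23, interval -0.54 to 0.99). Clcf1 had 8.09, 7.06 and 7.64 TPM in KO and 4.38, 7.50 and 2.31 TPM in WT (0.69, interval -0.05 to 1.42). No member had groups without overlap on D1. Among the receptor genes, Il6st was nearly level, with 67.4, 62.2 and 63.9 TPM in KO and 58.5, 68.7 and 65.7 TPM in WT and a log2 difference of 0.01 (interval -0.32 to 0.33). Il6ra ranged from 7.50 to 18.2 TPM in KO and 3.28 to 14.0 TPM in WT, Osmr from 16.1 to 19.5 and 8.81 to 18.8 TPM, and Lifr from 5.25 to 9.06 and 5.51 to 7.83 TPM. Stat3 was at 78.9, 71.8 and 73.9 TPM in KO and 75.3, 72.0 and 47.9 TPM in WT (0.23, interval -0.26 to 0.72). Socs3 was at 56.9, 36.6 and 45.0 TPM in KO and 41.0, 52.3 and 12.5 TPM in WT (0.57, interval -0.60 to 1.75). WT D1 replicate 3, the library low in macrophage markers, was the lowest of the 6 D1 libraries for Lif, Osm, Il6, Clcf1, Il6ra, Osmr, Socs3 and Stat3. Without it no unadjusted p was under 0.05, with log2 differences of 0.53 for Lif (interval -0.07 to 1.13), 0.11 for Osm, -0.29 for Il6 and -0.03 for Socs3. Neutrophil markers summed to between 343 and 3535 TPM in KO and 213 and 678 TPM in WT on D1, and their part in these values was not tested.

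On D4 all 10 members had lower means in KO, and none was called. Osm was at 0.83, 0 and 0.60 TPM in KO and 1.67, 1.72 and 1.28 TPM in WT, so that every KO library was below every WT library. The log2 difference was -0.83 (interval -1.41 to -0.26, unadjusted p = 0.007, adjusted p = 0.212). Stat3 was at 54.3, 26.5 and 43.8 TPM in KO and 75.3, 56.4 and 54.7 TPM in WT, again without overlap, with a log2 difference of -0.61 (interval -1.10 to -0.12, unadjusted p = 0.0166, adjusted p = 0.212). Groups without overlap in the lower direction were found for these 2 of 10 members and for 11.2% of all genes. An unadjusted p under 0.05 in the lower direction was reached by 19.1% of all genes, and the median of all genes was -0.28, so the whole table leaned the same way. Socs3 had 17.7, 2.99 and 9.55 TPM in KO and 35.8, 11.6 and 15.2 TPM in WT (-1.09, interval -2.26 to 0.09). Clcf1 had 4.33, 1.12 and 3.59 TPM in KO and 8.12, 4.60 and 3.55 TPM in WT (-0.72, interval -1.46 to 0.01). For both, KO and WT values overlapped. Il6 was at 0.26, 0 and 0.54 TPM in KO and 1.99, 0.71 and 0.17 TPM in WT, and Lif ranged from 0.50 to 1.07 TPM in KO and 0.36 to 2.25 TPM in WT. The receptor genes had interval limits on both sides of 0, with log2 differences of -0.54 for Lifr, -0.30 for Il6ra, -0.26 for Il6st and -0.16 for Osmr. KO D4 replicate 2, listed at 0 TPM for Osm and Il6, also had the lowest Stat3, Socs3, Clcf1, Il6ra, Il6st and Osmr of the 6 D4 libraries. Without it no unadjusted p was under 0.05, with log2 differences of -0.57 for Osm (interval -1.17 to 0.02), -0.33 for Stat3 (interval -0.79 to 0.13), 0.22 for Il6ra and 0.03 for Osmr. Beside its low macrophage sum of 479 TPM it had the highest D4 sums of myofibre markers (138573 TPM), nerve markers (1737 TPM) and adipocyte markers (1184 TPM), and the part of this tissue content was not tested.

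**Figure D3:**
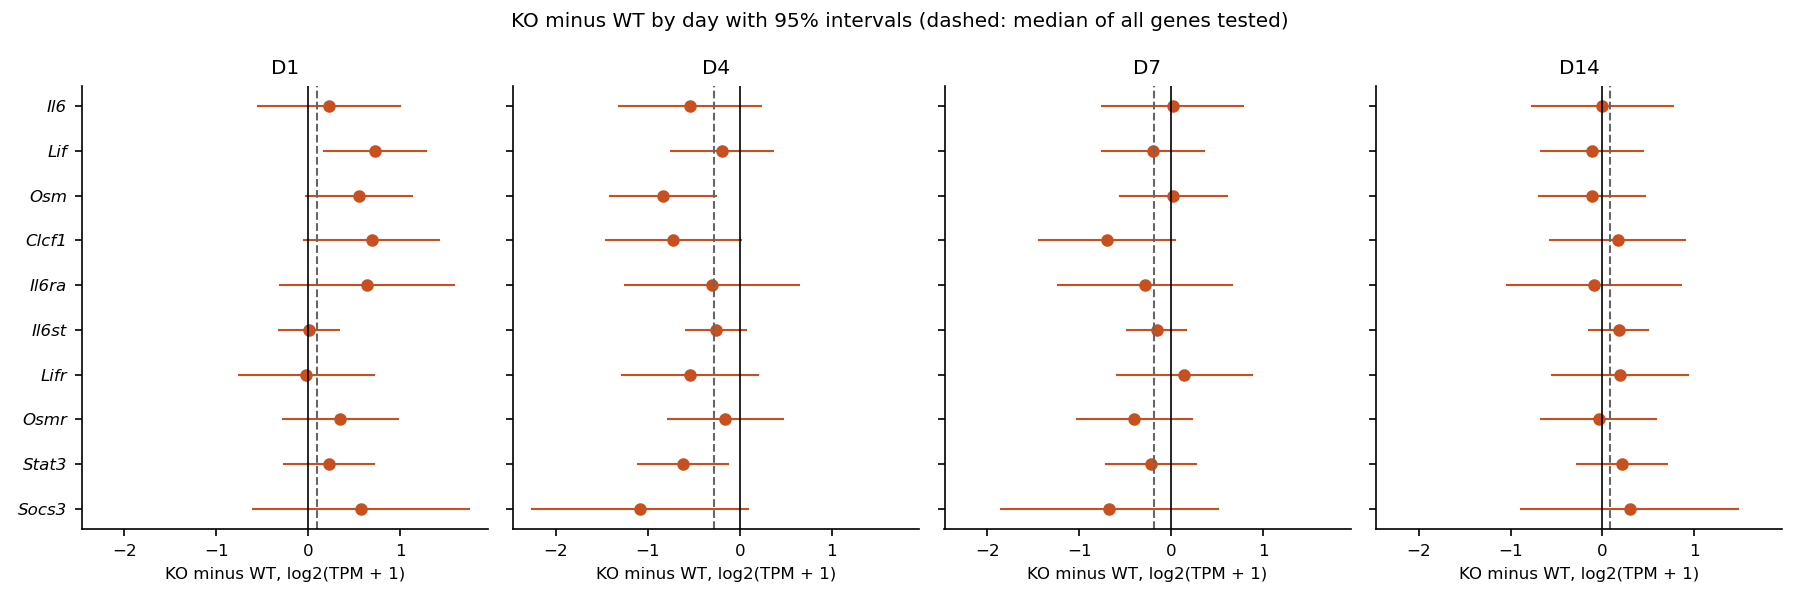
KO minus WT difference of mean log2(TPM + 1) with 95% intervals for the 10 genes on each day, with the median of all genes as a dashed line. On D1 the Lif interval lies above 0, on D4 the Osm and Stat3 intervals lie below 0, and on D7 and D14 every interval includes 0.

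On D7 and D14 no member was called between genotypes. On D7 Socs3 was at 7.34, 2.98 and 8.02 TPM in KO and 12.9, 8.52 and 8.15 TPM in WT, without overlap, as in the lower direction for 14.6% of all genes. Its log2 difference was -0.67 (interval -1.85 to 0.51, adjusted p = 0.776). Clcf1 was at 2.75, 1.14 and 2.17 TPM in KO and 4.60, 4.22 and 2.72 TPM in WT on D7 (-0.70, interval -1.43 to 0.04), and it was called in this comparison with library quality weights. KO D7 replicate 2 was the lowest of the 6 D7 libraries for Socs3, Clcf1, Stat3, Osmr, Il6ra, Il6st and Lif, and it had the highest myofibre marker sum, 204487 TPM against 130282 and 132697 TPM in the other KO libraries, whose part was not tested. Without it the differences were -0.30 for Socs3 (interval -1.59 to 1.00) and -0.47 for Clcf1 (interval -1.28 to 0.34). Osm was between 0.25 and 0.33 TPM in all 6 D7 libraries, with a log2 difference of 0.03 (interval -0.55 to 0.60). On D14 no member had groups without overlap. Differences then ran from -0.12 for Lif and Osm to 0.30 for Socs3, all with adjusted p = 1.00. Averaged over the 4 days, no member was called (background 0.00636% of genes), and the differences ran from -0.22 for Socs3 to 0.06 for Lif. The F test of whether the genotype difference varied with day called none of the members and none of the genes. At an unadjusted p it passed for Osm (0.0177) and Clcf1 (0.0261), and 7.65% of all genes had an unadjusted p under 0.05.

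To follow the family through repair, neighbouring days were compared within each genotype. In WT muscle from D1 to D4, Lifr was the 1 member called and it rose, from 7.83, 6.16 and 5.51 TPM to 18.2, 18.0 and 10.9 TPM. The groups did not overlap, as for 22.1% of genes in this direction, and the log2 difference was 1.14 (SE 0.352, adjusted p = 0.0281), in a comparison where 14.6% of genes were called higher. Its adjusted p was above 0.05 under 9 of 15 alternatives, including all 3 other scalings (0.0743 to 0.0865). Stat3 and Il6st were nearly level over this step in WT, with log2 differences of -0.05 (interval -0.54 to 0.44) and 0.04 (interval -0.28 to 0.36). From D4 to D7 Osm was the 1 member called, and it fell from 1.67, 1.72 and 1.28 TPM to 0.28, 0.25 and 0.27 TPM. This was a log2 difference of -1.01 (SE 0.276, adjusted p = 0.027), where 9.31% of genes were called lower. Osm reached 1 TPM in no D7 library and met the low-value requirement through D1 and D4 libraries alone. The direction of its call was thus tied to that requirement. The call was lost without WT D4 replicate 1 or 2 or WT D7 replicate 2 or 3 (adjusted p from 0.0596 to 0.109).

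From D7 to D14 in WT muscle, 4 members fell, where 30.9% of genes were called lower and the median of all genes was -0.45. Stat3 fell from 46.6, 36.4 and 34.4 TPM to 19.6, 20.6 and 15.6 TPM (log2 difference -1.03, SE 0.234, adjusted p = 0.00822). Clcf1 fell from 4.60, 4.22 and 2.72 TPM to 1.27, 0.99 and 0.55 TPM (-1.32, SE 0.352, adjusted p = 0.0137). In this step 6 of 10 members had groups without overlap in the lower direction, against 58.9% of genes. Socs3 went from 12.9, 8.52 and 8.15 TPM to 3.04, 4.07 and 1.44 TPM (-1.53, SE 0.563, adjusted p = 0.0451). Its call was lost with any of the 3 other scalings (adjusted p from 0.081 to 0.125) and with no filter. It was also lost without any 1 of the WT D7 libraries and without WT D14 replicate 1 or 3. Il6st went from 51.1, 43.8 and 52.7 TPM to 39.5, 35.7 and 31.7 TPM (-0.46, SE 0.155, adjusted p = 0.0337), close to the median of all genes, and its direction turned to 0.13 with median-of-ratios scaling. No member was called without WT D7 replicate 1 or without WT D14 replicate 3. In the same step the macrophage markers fell in 7 of 10 genes, from sums of 1401 to 1861 TPM to sums of 181 to 604 TPM, and their part was not tested.

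In KO muscle from D1 to D4, 6 of 10 members were called lower, where 12.2% of genes were called lower. Of these, Osm and Il6 reached 1 TPM in no KO D4 library and met the low-value requirement through D1 and WT D4 libraries alone. The count is thus partly fixed by that requirement. Socs3 fell from 56.9, 36.6 and 45.0 TPM to 17.7, 2.99 and 9.55 TPM (log2 difference -2.33, SE 0.563, adjusted p = 0.00884). Osm fell from 4.12, 2.91 and 4.68 TPM to 0.83, 0 and 0.60 TPM (-1.76, SE 0.276, adjusted p = 0.00048). Stat3 fell from between 71.8 and 78.9 TPM to between 26.5 and 54.3 TPM (-0.89, SE 0.234, adjusted p = 0.014). All 6 had groups without overlap, against 19.8% of genes in this direction. The others were Clcf1 (-1.20, adjusted p = 0.024), Il6 (-1.18, adjusted p = 0.0319) and Osmr (-0.95, adjusted p = 0.034), the last from 19.5, 16.1 and 18.1 TPM to 13.2, 6.54 and 7.78 TPM. Lif, Il6ra and Il6st had lower and Lifr had higher D4 means without a call. Without KO D4 replicate 2, the library low in macrophage markers, or without KO D1 replicate 3, only 2 members were called, and none was called when only the KO D1 and D4 libraries were fitted. No member was called from D4 to D7 (0% of genes) or from D7 to D14 in KO muscle (0.56% of genes).

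The step from D1 to D4 was then compared between the genotypes, a contrast added after these values were seen. No member and no gene was called. The KO step was lower than the WT step by 1.39 for Osm (log2 difference -1.39, interval -2.20 to -0.57), by 1.41 for Clcf1 (interval of the difference -2.45 to -0.37), by 0.92 for Lif and by 0.84 for Stat3. Each of these 4 had an unadjusted p under 0.05 and an adjusted p of 0.204, and 18.8% of all genes had an unadjusted p under 0.05 in this direction, around a median of -0.38. Without WT D1 replicate 3 the unadjusted limma p was 0.0771 for Lif, 0.0688 for Stat3, 0.00396 for Osm and 0.0406 for Clcf1. The Socs3 step was -2.33 in KO and -0.67 in WT. The steps of the genotypes were thus not shown to differ. The contrast shares its D1 and D4 libraries with the comparisons above.

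**Figure D4:**
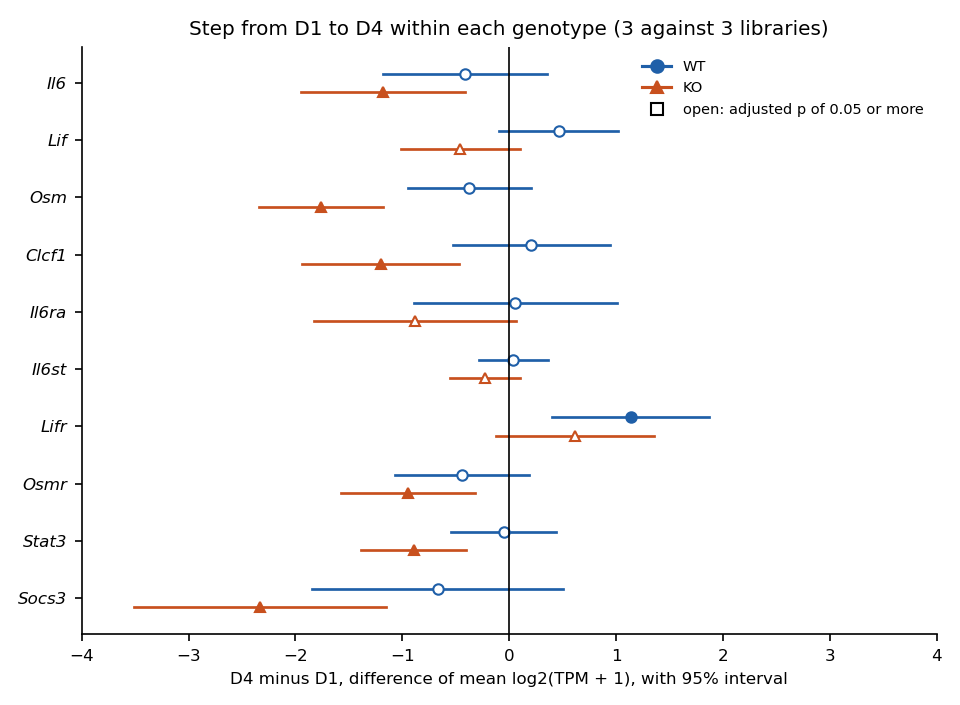
Difference of mean log2(TPM + 1) from D1 to D4 in WT (circles) and KO (triangles) with 95% intervals, filled where the adjusted p was under 0.05. Lifr is filled in WT at 1.14, and Socs3, Osm, Clcf1, Il6, Osmr and Stat3 are filled in KO from -2.33 to -0.89.

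Pathway lists were read in the same steps. The STAT3 target genes had 16 of 19 tested lower from D1 to D4 in KO, against 12.2% of all genes, with a median of -1.65 against -0.15 over all genes, led by Ccl2 (-5.89), Lcn2 (-4.22), Timp1 (-2.89) and Saa3 (-2.59). Fewer members were called in this KO step without KO D4 replicate 2 or with only the KO D1 and D4 libraries fitted. The list counts were not repeated under those alternatives. No gene was called in the contrast of this step between genotypes. In WT 6 of 19 were lower in that step, against 5.27% of all genes, led by Lcn2 (-4.07), Ccl2 (-3.58), Serpina3n (-2.13) and Cebpb (-1.07), and 4 fell from D4 to D7, against 9.31% of all genes, namely Junb (-1.93), Serpina3n (-1.72), Lrg1 (-1.35) and Pim1 (-0.93). From D7 to D14 in WT 6 of 19 were lower, a share close to the 30.9% of all genes, led by Timp1 (-3.73), Cd14 (-1.53), Icam1 (-1.23) and Myc (-1.16). Of 14 gp130 signalling genes tested, 3 were lower from D1 to D4 in KO, beside the 12.2% of all genes, the JAK kinase genes Jak2 (-0.96) and Jak1 (-0.51) and the phosphatase gene Ptpn2 (-1.11). In WT the same step had Stat5b lower (-1.11) and Pias3, an inhibitor of STAT3, higher (0.90). From D7 to D14 in WT, 7 of these 14 were lower, beside the 30.9% of all genes, including Adam10 (-1.18), Socs2 (-1.05) and Adam17 (-1.01). Of 8 other ligands and receptors tested, Ebi3 (-1.45), Il11ra1 (-0.61) and Il27ra (-0.53) were lower in that step and none was called in the others. Between genotypes no gene of these 3 lists was called on any day. Neutrophil markers had 6 of 7 tested lower from D1 to D4 in KO and 3 of 7 in WT. In KO, Cxcr2 fell from a mean of 28.5 TPM to 0.173 TPM, so that the direction of its call was tied to the low-value requirement. How far this holds for the other neutrophil markers was not counted, so these counts may be partly fixed by that requirement. Macrophage markers had 5 of 10 lower in KO and 2 higher and 1 lower in WT. Of all genes, 12.2% were lower in KO, and 14.6% were higher and 5.27% lower in WT. The part of these markers in the steps was not tested.

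Over the 24 injured libraries, 9 members varied in the same direction. As a description, with genotype and day shared by the points, Pearson's r on log2(TPM + 1) was 0.96 between Osmr and Socs3, 0.95 between Clcf1 and Stat3, and 0.94 between Stat3 and Socs3. The lowest r among the 9 was 0.64, between Lif and Il6st. With Lifr every other member had an r below 0, from -0.40 for Osmr to -0.02 for Lif. Among 15291 named genes, the most similar to Stat3 were Timp1 (r = 0.987), Vwa5a and Nfkb2, and to Socs3 Xbp1 (0.981), Adam8 and Gm49339. Osm was most like Ccr1 (0.972), Apoc2 and Krt80, Il6 most like Il18rap (0.952), Tnfsf14 and Mmp9, and Lif most like Abi3 (0.842), Chl1 and Gramd1a. Clcf1 was nearest to Rap2a (0.979), Topbp1 and Ralb, and Il6ra to Map3k8 (0.973), Rab8b and Sdcbp. The list for Osmr was Mcfd2 (0.968), Creld2 and Pxk, that for Il6st Gcn1 (0.973), Gmppa and Ncdn, and that for Lifr Cntnap1 (0.669), Cebpzos and Hfe.

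**Figure D5:**
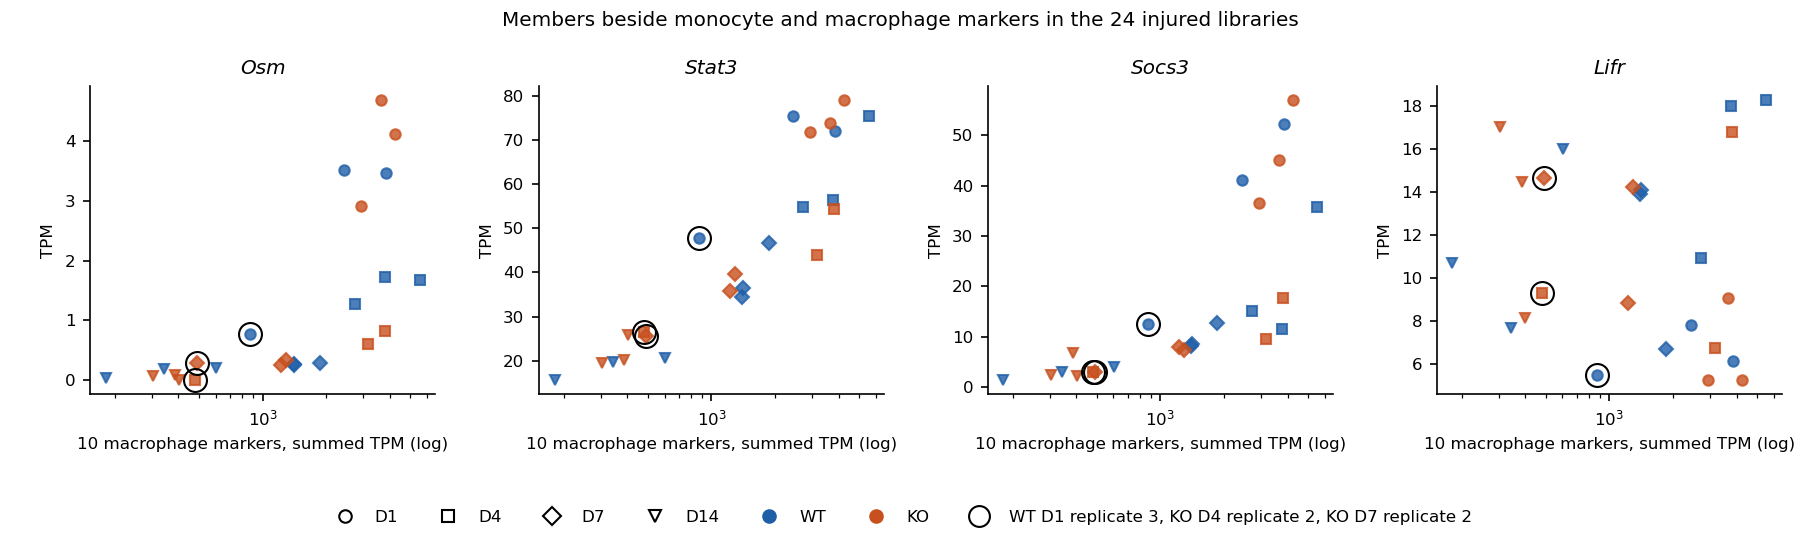
TPM of Osm, Stat3, Socs3 and Lifr in the 24 injured libraries against the summed TPM of 10 monocyte and macrophage markers on a log axis, with marker shape for day and colour for genotype. The circled libraries, WT D1 replicate 3 (870 TPM), KO D4 replicate 2 (479 TPM) and KO D7 replicate 2 (491 TPM), lie apart from their groups to the lower left for Stat3 and Socs3, and the first and second of them also for Osm.

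The genes lie as follows in mm10. Socs3 is at chromosome 11, 117966079 to 117970047, on the minus strand, and Stat3 is on the same chromosome at 100885098 to 100939540, also minus, where it overlaps the end of Stat5a on the plus strand. Osm (11, 4236420 to 4241026) and Lif (11, 4257557 to 4272514) are plus-strand neighbours 16.53 kb apart with no coding gene between them. Osmr (15, 6813577 to 6874969, minus) and Lifr (15, 7090614 to 7197489, plus) are likewise neighbours, 215.644 kb apart. On D1 Osmr was higher and Lifr lower than in control muscle, so these neighbouring receptor genes were called in opposite directions. Il6 lies at chromosome 5, 30013114 to 30019981, Il6st at 13, 112464070 to 112510086, and Clcf1 at 19, 4214238 to 4223490, all on the plus strand. Il6ra (3, 89864059 to 89913196, minus) is overlapped by the antisense gene Gm42809, and since strand use in counting was not stated, reads of overlapping genes cannot be told apart.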

How the data were processed

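RNA was sequenced from muscle of WT and Gsdme KO mice in 27 libraries. The authors deposited TPM per gene, scaled to the same total in each library, in a table of 24 injured libraries and another with the 3 control and the 3 WT D1 libraries. The labels name a SMARTER mRNA kit and paired-end Illumina reads, and the submitters' processing notes name mm10. The aligner, counting tool and strand setting are not given in the sources used here. Deposited group means and differences were not used. Groups and replicate numbers came from sample titles. Nothing in the labels ties libraries to separate animals beyond the word triplicates, so p-values measure the spread between these libraries.

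TPM was analysed as log2(TPM + 1), which understates changes of low genes. Genes of at least 1 TPM in at least 3 libraries were tested with limma 3.58.1 (R 4.3.3), with group means, empirical Bayes moderation and a variance trend, over 15718 genes (8 injured groups in 1 model) and 13041 genes (control table). Called means a Benjamini-Hochberg adjusted p under 0.05 over all genes. Single values had exact two-sided permutation tests (numpy 2.4.6), over 20 assignments for 3 against 3 and 160000 within 4 days. The script was tested on simulated data. Locations came from GENCODE M21 and promoters from RefSeq GRCm38.p6. The family members and the lists (3 pathway lists and 10 cell type marker lists) were chosen with earlier results of these data known. From each pathway list, the genes called in a comparison are named, or the 4 with the largest difference, except for 1 gene that is not reported here, and the marker lists are given by counts and sums. Alternatives were a pseudocount of 0.1, no filter, a filter at 5 TPM, median-of-ratios and quantile scaling, removal of the 50 most abundant genes, library quality weights, a replicate block, a fit of only the groups compared, and leaving out each library.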

Additional observations from a re-analysis of the deposited data

How the results depend on the processing

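Of 486 alternative values for 34 results of single members, 408 kept their direction and side of the threshold, 71 fell short of it, 5 newly passed and 2 reversed. For Il6, Lif and Osm in WT D1 against control, which were under the low-value requirement, only the direction was compared. Both reversals were Il6st with median-of-ratios scaling, -0.15 for WT D1 against control and 0.13 for WT D14 against D7. Of 248 alternative counts of called members, 220 stayed within 1.5 times, 24 fell by more and 4 rose by more. Most of the 248 came from comparisons with no member called, where 0 that stayed 0 was counted as unchanged. All 24 falls came from the comparisons with a called member, so the 220 do not show that those counts were stable. The number called changed from 0 to 1 for KO against WT on D7, from 1 to 7 for WT D7 against D4, from 0 to 5 for KO D14 against D7 and from 6 to 2 for KO D4 against D1 with library quality weights. For WT D4 against D1 it fell from 1 to 0 with no filter, without the 50 most abundant genes and with only the groups compared, and the 1 member called was Osmr with median-of-ratios or quantile scaling and Osm without WT D1 replicate 3, in place of Lifr. For WT D7 against D4 it fell to 0 with the filter at 5 TPM, under which Osm is not tested. For WT D14 against D7 it fell from 4 to 2 with no filter, median-of-ratios scaling, quantile normalization and without the 50 most abundant genes. For KO D4 against D1 it fell to 3 with no filter and 0 with only the groups compared. Where a cause is not named, it was not tested.

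Leaving out 1 library gave 4 to 6 called members for WT D1 against control, 0 to 1 for WT D4 against D1 (0 without WT D1 replicate 2 or WT D4 replicate 1 or 2), 0 to 2 for WT D7 against D4 (0 without WT D4 replicate 1 or 2 or WT D7 replicate 2 or 3, 2 without WT D4 replicate 3), 0 to 3 for WT D14 against D7 (2 without WT D7 replicate 3) and 2 to 7 for KO D4 against D1. It gave 0 for every comparison of KO with WT. The replicate block gave 6 members in place of 7 for WT D1 against control, where Lifr had an adjusted p of 0.0799, and changed no other count. Replicate numbers gave no sign of pairing. Same-numbered libraries of different groups had deviations correlated from -0.475 to 0.442 (median 0.00566, 84 pairs), as did others (median 0.00179, 168 pairs). In the control table the 3 pairs had r of 0.00213 to 0.0611. The study names contralateral muscle, so control and WT D1 libraries may share mice. So few pairs cannot decide this, nor show pairing in another order.

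Counts over all genes moved by more than 1.5 times from 5000 for WT D14 against D7 (2106 to 9503), from 1941 for WT D7 against D4 (908 to 10595), from 88 for KO D14 against D7 (7 to 7861), and, with only the groups compared, from 3120 to 1163 for WT D4 against D1 and from 3049 to 52 for KO D4 against D1. Quantile normalization gave 5226 in place of 7965 for WT D1 against control. For KO against WT, quality weights called 533 genes on D7, 51 on D14, 3 on D4 and 11 on average, and no filter 14 on D1 and 21 on D4. Il6, Lif and Osm rest on values near 1 TPM or below, at an unknown depth, so small differences in them could not be detected.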

Other observations

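Il31ra, which encodes a chain of the IL-31 receptor and is the next coding gene after Il6st on chromosome 13, had a mean of 243 TPM in control muscle and 391 TPM on D1, above the means of Il6st in the same libraries, 42.2 and 64.5 TPM. It was called higher on D1 with a log2 difference of 0.72 (adjusted p = 0.0257), close to the median of all genes. Whether reads of a neighbouring or overlapping transcript were counted to it was not tested.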
